A study of Rattus norvegicus with 125 samples.

Results

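Cytochrome P450 genes were examined in RNA-seq of rat kidney tubule segments dissected by hand. The set held every gene whose symbol is Cyp followed by digits, a letter and digits, leaving out Cyp24a1 and Cyp27b1, and kept the transcript row with the highest mean for each symbol. That gave 69 of 17144 gene symbols. A further 2 symbols with suffixes (Cyp2c6v1 and Cyp3a23/3a1) stayed outside the set and never exceeded 0.00875 RPKM. RPKM scales reads to transcript length and library size, but this does not make levels fully comparable between genes or libraries. Median shifts over all genes remain between groups, as given below, and levels of some genes differ between the deposited RPKM tables.

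The study held libraries from 14 tubule segments (21 proximal and 84 other) and 5 from glomeruli of male Sprague-Dawley rats weighing 200 to 250 g. The proximal tubule was represented by S1, S2 and S3 (7 libraries each). The thin limbs were the short descending limb (SDL, 10), the long descending limb in the outer medulla (LDLOM, 9) and in the inner medulla (LDLIM, 4), and the thin ascending limb (tAL, 7). The distal segments were the thick ascending limb in medulla (mTAL, 7) and cortex (cTAL, 7), the distal convoluted tubule (DCT, 8), the connecting tubule (CNT, 6), and the collecting duct in cortex, outer medulla and inner medulla (CCD 11, OMCD 7, IMCD 8). A separate experiment had 8 CCD libraries from 5-week-old male rats that all received the vasopressin analogue ddAVP by minipump at 5 ng per hour. Of these, 4 rats received 25 mL of water a day in gelled food (control) and 4 received 50 mL a day (water load), for 4 days. The other 7 samples of the series, made by sequencing polyadenylation sites of whole kidney, were not analysed here. Tubules were freed with collagenase and amplified with a protocol made for single cells. The labels do not say whether segment libraries came from different rats, so p-values between segments measure the spread between libraries, which may be technical.

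Depth in reads is not given, but the steps between low RPKM values gave relative depth for 106 of 110 libraries and spanned 14.2-fold. Genes at or above 1 RPKM numbered 1438 to 8574 in tubule libraries and 8818 to 9483 in glomeruli. Marker lists were high in the structures they mark: the median summed RPKM of 10 proximal tubule genes was 4594 in S1, 7356 in S2 and 4150 in S3, that of the thick ascending limb list (4 genes) was 1946 in mTAL and 12867 in cTAL, that of the collecting duct list (8 genes) was 5344 to 7763 from CNT to IMCD, and that of the podocyte list (6 genes) was 3596 in glomeruli. No marker list was used for thin limbs. The 10 proximal genes had medians of 8.48 in SDL, 47.3 in LDLOM and 54.0 in LDLIM. With Aqp1 as an 11th gene, the proximal list had medians of 1331 in SDL, 2089 in LDLOM and 3783 in LDLIM, against 4692 in S1. Aqp1 alone had medians of 1317 in SDL, 1340 in LDLOM and 3748 in LDLIM, against 94.9 in S1. Tubule medians of the leukocyte list (9 genes) ran from 3.56 in IMCD to 1337 in S2, with 744 in S1 and 954 in mTAL. In that list Cd74 alone had medians of 581 in S1, 684 in S2, 632 in mTAL and 640 in glomeruli. Other members differed: C1qa had medians of 0.984, 4.51, 0 and 63.2 in these groups, and Ptprc was at 0 in all 7 mTAL libraries. Tubule medians of the endothelial list (10 genes) ran from 4.09 in OMCD to 526 in tAL, where the highest library reached 8463. Across the table, single genes were often absent from 1 library of a segment and high in the next, so medians and ranges are given with the means. In bulk samples, fewer cells of a type and less RNA per cell cannot be told apart.

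Cytochromes P450 are haem enzymes that insert an oxygen atom into their substrates, with electrons from P450 oxidoreductase (Por) in the endoplasmic reticulum or from ferredoxin in mitochondria. In kidney they are known for metabolism of arachidonic acid: Cyp4a and Cyp4f enzymes make 20-HETE, which acts on vessels and on sodium transport, and Cyp2c and Cyp2j epoxygenases make epoxyeicosatrienoic acids. Others oxidise drugs and toxicants, steroids, sterols, vitamin D or retinoic acid.

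Of the 69 genes, 16 were listed at 0 in all 110 libraries and another 15 stayed under 1 RPKM throughout. A listed 0 need not mean absence: the distal convoluted tubule marker Pvalb was at 0 in all 8 DCT libraries. These 31 took in all 6 Cyp2b, all 4 Cyp3a and all 3 Cyp2a genes, from subfamilies that include drug-metabolising enzymes of liver. They also took in the 3 adrenal Cyp11b genes and the bile acid enzymes Cyp7a1 and Cyp8b1. At the other end, 19 genes had a mean of at least 10 RPKM in at least 1 segment or in glomeruli. Of these, 12 were highest in the proximal tubule (1 in S1, 5 in S2, 6 in S3), 2 in SDL, 1 each in LDLIM, tAL, cTAL and OMCD, and 1, Cyp26b1, in glomeruli. The filter used for testing, at least 1 RPKM in at least 4 tubule libraries, passed 29 genes. It stopped 9 that did reach 1 RPKM in some library, among them Cyp2c24, at 23.7 RPKM in S2 library 1 and 18.4 in S2 library 3 but 0 to 0.162 in the other S2 libraries.

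**Figure D1:**
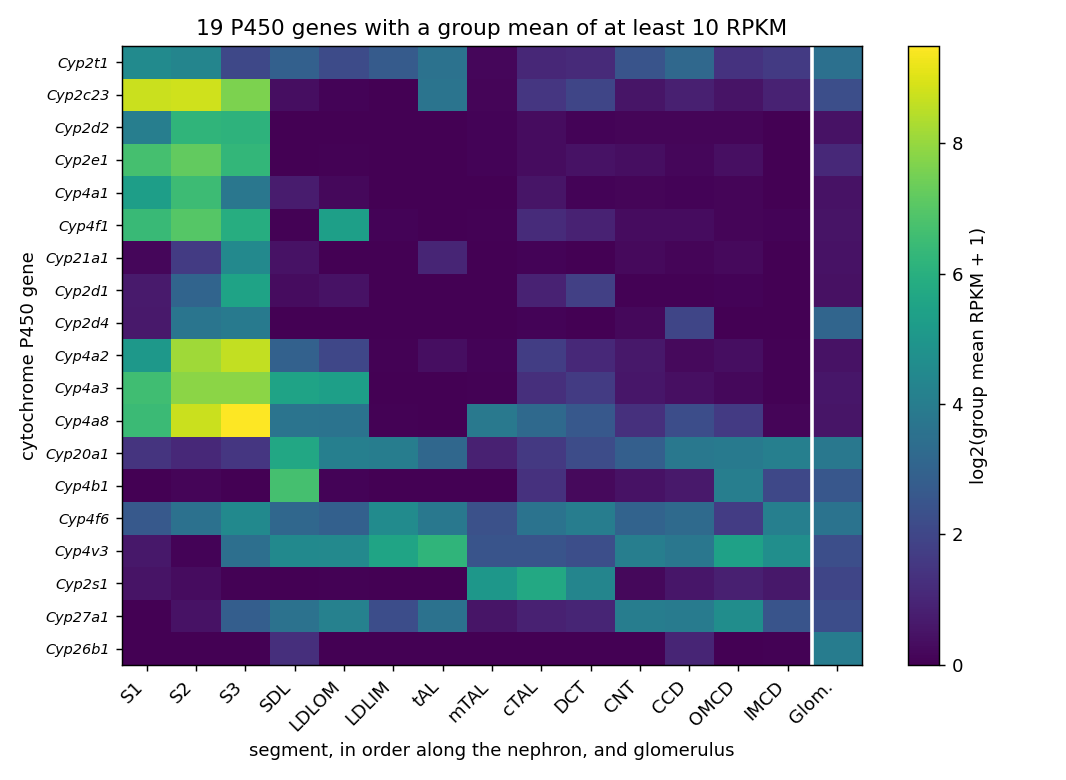
Mean RPKM of 19 cytochrome P450 genes in 14 tubule segments (left to right along the nephron) and glomerulus, coloured as log2(group mean RPKM + 1). Rows are ordered by the group with the highest mean. The 12 proximal genes fill the upper left, and Cyp26b1 is the only gene with its highest mean in glomerulus, where other genes were present too.

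The proximal tubule held most of the P450 signal. Summed over the 69 genes, the median library reached 746 RPKM in S1, 1629 in S2 and 1774 in S3. In the other segments the median ran from 29.2 RPKM in mTAL to 246 in SDL, and in glomeruli it was 99.1. The genes behind the sum are given as shares of the summed group means, which single libraries can carry. Cyp2c23 made up 46.2% in S1, and Cyp2c23 and Cyp4a8 made up 23.6% and 22.6% in S2. Cyp4a8 led S3 with 38.1%. In the second deposited RPKM table, however, Cyp4a2 led both S2 (25.6%) and S3 (34.9%, with Cyp4a8 at 29.3%), so the order of these genes depends on the table. Cyp2s1 led in cTAL (55.2%), Cyp4b1 in SDL (36.0%), and Cyp4v3 in LDLIM (47.8%) and tAL (53.4%), whichever library was left out and in both tables. Cyp4v3 also led in IMCD (33.3%), where Cyp20a1 led in the second table (32.6%). The lead of other genes rested on single libraries. Cyp2s1 held 53.8% in mTAL but 22.2% without library mTAL 4, when Cyp4a8 led with 38.7%, and 28.2% in DCT but 20.3% without DCT 8, when Cyp4f6 led. Cyp4v3 held 38.3% in OMCD but 13.4% without OMCD 7, when Cyp27a1 led with 29.1%. In CNT, Cyp4v3 (27.1%) and Cyp27a1 (26.6%) were nearly level, and Cyp27a1 led without any 1 of 3 libraries (CNT 1, 3 and 5).

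**Figure D2:**
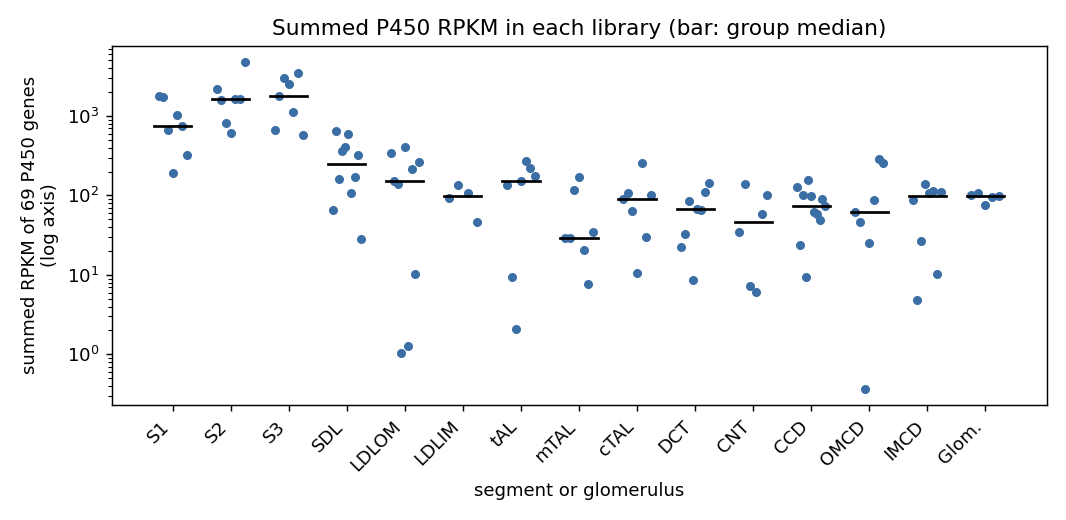
Summed RPKM of the 69 genes in each library, on a log axis, by segment and for glomerulus; each point is a library and each bar the group median. S1, S2 and S3 medians (746, 1629 and 1774 RPKM) lie above those of all other groups (29.2 to 246 RPKM), with overlap between single libraries.

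To ask which genes vary along the nephron, the 14 segments were compared in 1 limma fit on log2(RPKM + 1), with p-values adjusted over all 11078 genes tested. Of 29 P450 genes, 18 differed among segments, against 41.5% of all genes tested. Cyp2c23 (adjusted p = 6.5e-30), Cyp4a2 (9.2e-27) and Cyp4a8 (1.7e-21) had the smallest p-values. Outside the genes called higher in proximal tubule below, Cyp2s1 (1.4e-15), Cyp4b1 (1.1e-05), Cyp2j4 (0.00087), Cyp7b1 (0.013), Cyp4v3 (0.015) and Cyp20a1 (0.027) passed too. Cyp2t1, among the genes called higher there, did not pass (adjusted p = 0.14).

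The 21 proximal libraries were then compared with the 84 libraries of the other 11 segments, counting a change at adjusted p under 0.05 and a log2 difference of at least 1. Of the 29 genes 15 differed, against 22.3% of all genes: 13 were higher in proximal tubule, against 6.87%, and 2 were lower, against 15.4%. Of the 13, Cyp2d2, Cyp2d4, Cyp2d5 and Cyp4a1 reached 1 RPKM in fewer than 4 of the 84 other libraries and so passed the filter only through the proximal libraries where they were high. They could hardly have been tested without differing, and the count of 13 is no support for the set. With no filter on low values the count was 13 as well. The median difference was -0.05 over the 29 genes and -0.36 over all genes, and quantile normalization moved the latter to -0.09. The differences below are given without subtracting that shift, and for each of the 15 genes the library values of the 2 sides overlapped.

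Among the epoxygenases, Cyp2c23, the main arachidonate epoxygenase of rat kidney, showed the largest difference. It ranged from 4.79 to 1035 RPKM in proximal libraries (median 312, mean 356 ± 304 SD, n = 21) and had a mean of 1.70 ± 9.08 (SD, n = 84) elsewhere. All 21 proximal libraries were at or above 1 RPKM, as were 12 of the 84 others. The log2 difference was 7.22 ± 0.35 (SE, adjusted p = 1.8e-36). Library S1 4, at 4.79 RPKM, and library S2 4, at 7.27, lay far below the other S1 libraries (159 to 1007) and S2 libraries (248 to 1035). Cyp2j4, another epoxygenase, was at 1.09 ± 2.17 RPKM (SD) in proximal tubule, with a log2 difference of 0.57 that passed the p threshold (7.4e-05) but not the size threshold.

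The 4 Cyp4a genes, fatty acid omega-hydroxylases that make 20-HETE, were all higher in proximal tubule. Cyp4a8 reached 411 ± 431 RPKM (SD, n = 21), with a log2 difference of 6.56. Cyp4a2 had a mean of 236 ± 284 and a difference of 5.91. In the second deposited table Cyp4a2 had a proximal mean of 520 ± 635 RPKM, above Cyp4a8 at 411 ± 431, so their order is not settled, and Cyp4a1 had 71.4 ± 103. In the main table Cyp4a3 had a mean of 184 ± 155 and a difference of 5.79, and Cyp4a1 a mean of 47.4 ± 68.5 and a difference of 3.65. Their standard errors were 0.29 to 0.46, and the largest of the 4 adjusted p-values was 2.0e-21. Cyp4a1 passed the filter only through proximal libraries, so its p-value is no support. Cyp4f1, of a related omega-hydroxylase family, followed with 90.3 ± 103 RPKM and a difference of 4.82. Cyp4f6, of the same family, did not pass: its mean was 12.4 ± 30.02 RPKM in proximal tubule and 9.93 ± 13.1 elsewhere (log2 difference -0.09, adjusted p = 0.90), and its highest segment mean was in LDLIM. Cyp4a genes supplied a median of 23.7% of summed P450 RPKM in S1, 52.4% in S2 and 66.2% in S3.

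Among genes that metabolise drugs and toxicants, Cyp2e1, which oxidises ethanol and small solvents, reached 110 ± 145 RPKM (SD, n = 21) against 0.125 ± 0.348 elsewhere, a log2 difference of 4.83. It was also uneven: library S1 7 and library S2 4 were at 0 while the highest libraries of those segments held 229 and 526 RPKM. Of the 5 Cyp2d genes, relatives of the human debrisoquine hydroxylase, 4 were higher in proximal tubule. Cyp2d2 led with 52.6 ± 81.8 RPKM (difference 3.84), followed by Cyp2d1 (17.5 ± 29.3, 2.33), Cyp2d4 (8.66 ± 18.3, 1.49) and Cyp2d5 (3.02 ± 4.58, 1.22). The remaining Cyp2d3 never reached 1 RPKM (highest 0.931 in S3). Cyp1a1, induced by dioxin-like compounds through the aryl hydrocarbon receptor, was above 1 RPKM in 3 libraries only, at 21.4 in S3 library 4, 2.78 in S2 library 7 and 1.05 in S3 library 3.

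The last 2 genes called higher in proximal tubule were Cyp2t1 and Cyp21a1. Cyp2t1, of unassigned function, had a mean of 14.8 ± 22.1 RPKM in proximal tubule and 4.25 ± 10.8 elsewhere, with a difference of 1.17 (adjusted p = 0.027). Without the 14 tubule libraries that had fewer than 2500 genes at 1 RPKM, its adjusted p was 0.085. Its mean was 22.3 RPKM in S1 and 19.1 in S2 but 3.16 in S3, and 11.0 in tAL. In the limma test across all 14 segments it did not pass (adjusted p = 0.14). Cyp21a1, the steroid 21-hydroxylase of the adrenal cortex, had a mean of 7.88 ± 17.4 RPKM and a difference of 1.16 (adjusted p = 5.8e-06), carried by S3.

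The 2 genes lower in proximal tubule were Cyp4v3 and Cyp20a1. Cyp4v3, a fatty acid omega-hydroxylase, was at or above 1 RPKM in 2 of 21 proximal libraries and 53 of 84 others, with means of 3.52 ± 15.001 and 22.9 ± 43.2 RPKM. Its log2 difference was -2.38 ± 0.53 (SE, adjusted p = 0.00023). Cyp20a1, whose substrate is unknown, had means of 1.53 ± 2.93 and 14.6 ± 46.8 RPKM and a difference of -1.35 (adjusted p = 0.020). Under quantile normalization its adjusted p was 0.061. Cyp27a1, which hydroxylates the side chain of cholesterol in mitochondria, had a difference of -1.10 that missed the threshold (adjusted p = 0.066).

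Most of these genes are neighbours. In the GRCr8 annotation, 40 of the 69 genes lie directly beside another member of the set. Cyp2d4, Cyp2d5, Cyp2d1, Cyp2d3 and Cyp2d2 follow each other in that order, and so do Cyp4x1, Cyp4a8 and Cyp4a2, and then, past Cyp4a2l1, Cyp4a3, Cyp4a1 and Cyp4b1. Such copies can share reads, and the sources used here do not say how reads that map to several places were counted, so the split within Cyp2d and Cyp4a is uncertain. The 250 bases upstream of the start were 92.5% identical between Cyp4a2 and Cyp4a3, 89.0% between Cyp2d1 and Cyp2d3, 70.5% between Cyp2d1 and Cyp2d5 and 45.6% between Cyp2d1 and Cyp2d2, over the length of a global alignment. As listed, the S3 means of Cyp2d1 and Cyp2d3 were 44.7 ± 37.8 and 0.155 ± 0.343 RPKM.

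Of the transcription factors known to act on P450 genes, 3 are described first, and others were tested. Higher in proximal tubule by the same limma test were Hnf4a (33.2 ± 35.0 RPKM against 0.527 ± 3.65, log2 difference 4.05, adjusted p = 1.5e-26) and Nr1i2, the pregnane X receptor (8.16 ± 27.0 against 0.492 ± 3.62, 1.12, adjusted p = 9.4e-05). Nr1h4, the bile acid receptor, had an adjusted p of 0.0019 but a difference of 0.86, under the size threshold. The upstream sequences of 4 proximal genes that held a match are shown, with the matches to 2 motifs of Hnf4a and related factors. Cyp21a1 also held a match and is not shown, while Cyp2e1, Cyp4a2, Cyp4a3 and Cyp4a8 held neither motif. The searches ran on both strands of the 250 bases before each start in RefSeq (GRCr8), found for 56 of the 69 genes. The HNF4 motif was CAAAGTCCA with up to 1 mismatch. The direct repeat, bound by HNF4 and other nuclear receptors, was AGGTCA, the base A and AGGTCA again, with up to 2 mismatches. The HNF4 motif and the direct repeat are alike and can overlap. The HNF4 motif matched 7.33% and the direct repeat 1.12% of all 33469 upstream windows. Of the 24 tested P450 genes with a window, 5 held the HNF4 motif and 2 the direct repeat. Of the 32 other P450 genes with a window, which were listed at 0 or too low to test, 10 and 4 did. Sequences run 5′ to 3′ on the gene's strand and end at the base before the start, with the matched bases in capitals.
Cyp2c23, chr1:252863068-252863317, minus strand, HNF4 match: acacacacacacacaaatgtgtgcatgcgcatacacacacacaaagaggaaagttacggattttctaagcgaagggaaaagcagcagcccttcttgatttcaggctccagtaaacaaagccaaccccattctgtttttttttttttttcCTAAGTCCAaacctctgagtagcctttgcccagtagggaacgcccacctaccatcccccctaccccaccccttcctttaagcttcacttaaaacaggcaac
Cyp2d2, chr7:115819282-115819531, minus strand, HNF4 matches: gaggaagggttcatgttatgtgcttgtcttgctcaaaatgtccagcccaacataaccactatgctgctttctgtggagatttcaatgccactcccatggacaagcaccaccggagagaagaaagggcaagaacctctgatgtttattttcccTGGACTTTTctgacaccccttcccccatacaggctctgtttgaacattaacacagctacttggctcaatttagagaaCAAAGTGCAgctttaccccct
Cyp2d1, chr7:115793431-115793680, minus strand, direct repeat match: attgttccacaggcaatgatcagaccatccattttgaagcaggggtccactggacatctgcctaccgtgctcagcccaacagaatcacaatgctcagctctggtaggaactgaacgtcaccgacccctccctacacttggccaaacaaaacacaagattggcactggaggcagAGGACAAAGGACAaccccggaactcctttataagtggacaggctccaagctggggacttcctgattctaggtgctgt
Cyp2d5, chr7:115784488-115784737, minus strand, direct repeat match: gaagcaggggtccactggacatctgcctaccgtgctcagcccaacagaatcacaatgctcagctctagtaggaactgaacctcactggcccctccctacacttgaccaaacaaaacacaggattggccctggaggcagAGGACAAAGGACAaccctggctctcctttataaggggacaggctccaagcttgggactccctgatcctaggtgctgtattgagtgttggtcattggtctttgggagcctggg
The Cyp2c23 match spans bases 101 to 93 before the start. Cyp2d2 has a match at bases 98 to 90 and another at 21 to 13. Cyp2d1 and Cyp2d5 hold the same 13 bases, AGGACAAAGGACA, at 77 to 65 and at 112 to 100 (Cyp2d5 also has an HNF4 match at 19 to 11, not in capitals), as does the nearly silent Cyp2d3 at 73 to 61. Such matches describe the letters only.

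The enzymes that work with P450s did not follow 1 direction. Of 8 electron donors and partners, 3 were higher in proximal tubule and 2 lower. Cyb5a, cytochrome b5, was higher (605 ± 604 RPKM against 207 ± 189, log2 difference 1.62, adjusted p = 0.0021), as were its reductase Cyb5r3 (difference 1.67) and Pgrmc1 (1.40). Cyb5b, the outer mitochondrial form of cytochrome b5, and Cyb5r1 were lower (-1.28 and -1.36). Por itself, at 24.2 ± 23.6 RPKM in proximal tubule and 19.5 ± 22.7 elsewhere, did not pass (difference 0.52, adjusted p = 0.37), and its mean in SDL was 47.9 ± 39.9. Of 5 epoxide hydrolases and noncanonical P450s, Ephx2, the soluble hydrolase that degrades epoxyeicosatrienoic acids, was higher (60.7 ± 99.5 against 21.5 ± 52.0, difference 1.98, adjusted p = 0.0044). Cyp51, the sterol demethylase whose symbol lies outside the set, was lower (difference -1.27, adjusted p = 0.026).

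The next question was how the proximal genes are divided among S1, S2 and S3. From S1 to S2, 6 of 29 genes rose and none fell, where 0.596% of all genes passed, 0.46% higher and 0.135% lower (limma; 9 P450 genes had an unadjusted p under 0.05, all of them higher in S2, as did 3.97% of all genes in either direction). Cyp4a2 ranged from 0.351 to 119 RPKM in S1 (median 9.70) and from 26.5 to 849 in S2 (median 179), a log2 difference of 3.93 ± 0.73 (SE, adjusted p = 0.00039). Cyp4a8 went from a median of 62.3 RPKM to 349 (difference 3.53, adjusted p = 0.048), and Cyp4a1 from 7.46 to 39.0 (2.49, 0.024). Cyp2d2 (2.52), Cyp2d5 (1.27) and Cyp2j4 (1.03) completed the 6. S1 and S2 values overlapped for each of them. Cyp2c23 and Cyp2e1 had differences of 0.20 ± 0.76 and 0.63 ± 0.74 (SE, adjusted p = 1.0 for both).

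These S1 to S2 calls rested on the error shared across 14 segments and on single libraries. With S1 and S2 fitted alone, no P450 gene passed (Cyp4a2 adjusted p = 0.099, Cyp4a8 0.11). Of the 14 fits that each left out 1 library, Cyp4a2 passed in all, Cyp2d5 missed the threshold in 2, Cyp4a1 in 6, Cyp2d2 in 7, Cyp2j4 in 8 and Cyp4a8 in 9. The count fell to 1 without library S2 7, to 2 without any 1 of libraries S1 3, S1 4, S1 7, S2 1 or S2 5, and to 3 without S2 6. A pseudocount of 0.1 left 1 gene, Cyp2d5 (Cyp4a2 adjusted p = 0.097), and dropping the 14 libraries of few genes left 2.

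From S2 to S3, 3 genes rose and 1 fell, where 0.885% of all genes passed, 0.226% higher and 0.659% lower. Cyp2d1 was listed at 0 in 2 of 7 S2 libraries and reached 22.6 RPKM there (median 1.78). It ran from 10.6 to 113 in S3 (median 29.5), a log2 difference of 3.09 ± 0.48 (SE, adjusted p = 1.9e-06). Cyp21a1 was above 1 RPKM in 2 S2 libraries (12.6 and 2.36) and in 4 S3 libraries (59.996, 51.7, 28.3 and 9.28), with a difference of 2.09 (adjusted p = 0.0035). Cyp2d5 had a difference of 1.12 (adjusted p = 0.043). Cyp4a1 fell by 3.67 on the log2 scale (adjusted p = 2.4e-05): it held 12.7 to 235 RPKM in all 7 S2 libraries, while 3 S3 libraries were under 0.03 and the highest was at 53.9. None of the 4 passed with S2 and S3 fitted alone (adjusted p = 0.36 to 0.90), and without library S3 4 or S3 6 Cyp2d5 and Cyp21a1 were lost. Cyp2d5 was also lost without any 1 of S2 1, S2 2, S2 3, S2 4, S2 6, S3 3 or S3 5 (adjusted p = 0.063 to 0.29).

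From S1 to S3, 5 genes rose and none fell, where 1.88% of all genes passed, 0.966% higher and 0.912% lower (limma; 10 P450 genes had an unadjusted p under 0.05, as did 7.52% of all genes). Cyp2d1 rose from a highest S1 value of 3.26 RPKM to a lowest S3 value of 10.6, without overlap (log2 difference 4.63 ± 0.48 SE, adjusted p = 2.9e-13). Cyp2d5 also did not overlap, with a highest value of 0.126 RPKM in S1 and a lowest of 0.801 in S3 (difference 2.39). Cyp4a2 (4.36), Cyp4a8 (3.93) and Cyp21a1 (2.75) overlapped between the segments. No gene was lower in S3 by the threshold, and Cyp2e1, at 103 ± 95.6 RPKM in S1 and 76.3 ± 161 in S3, had an unadjusted p of 0.033 and an adjusted p of 0.53. With S1 and S3 fitted alone, 3 of the 5 passed, and Cyp2d5 (adjusted p = 0.15) and Cyp21a1 (0.18) did not. Cyp4a8 missed the threshold without library S1 4 (adjusted p = 0.055). The comparisons of S1, S2 and S3 share libraries, so they are not independent of one another.

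**Figure D3:**
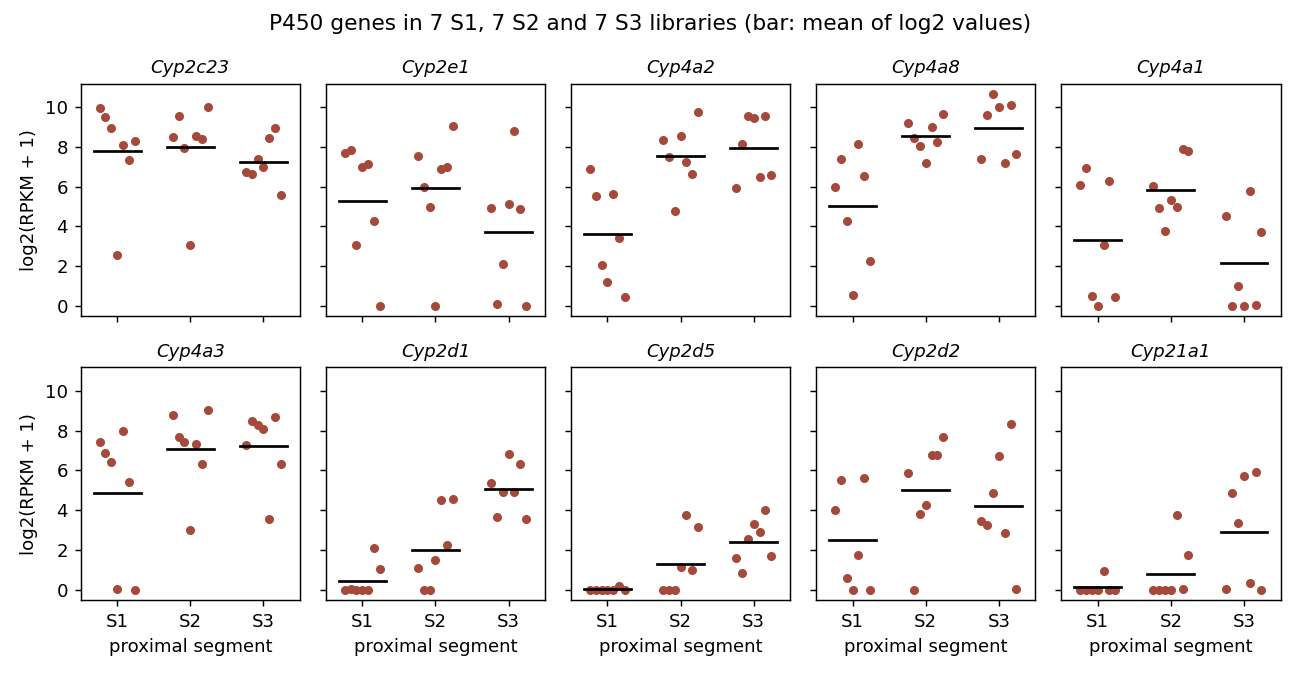
Levels of 10 P450 genes in the 7 S1, 7 S2 and 7 S3 libraries as log2(RPKM + 1); each point is a library and each bar the mean of the log2 values. Cyp2d1 climbs from S1 through S3, with no overlap between S1 and S3; Cyp4a1 is highest in S2; Cyp2c23 has 1 low library in S1 and 1 in S2.

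A gene counted as selective for a segment if its mean log2 level there was at least 1 above that of all 13 others and the weakest of those 13 tests still passed after adjustment over all genes. It held for 2 P450 genes, both in S3, against 1.19% of all genes. Only 1 passed at a pseudocount of 0.1, and only 1 once the 14 libraries of few genes were dropped. Cyp2d1 exceeded the next segment by 3.09 (adjusted p = 8.1e-06) and Cyp21a1 by 2.09 (0.017). Cyp4a1 in S2 (margin 2.49, adjusted p = 0.17) and Cyp2d5 in S3 (1.12, 0.21) did not pass.

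Past the proximal tubule, the P450 genes differed by segment. Cyp2s1, an extrahepatic enzyme, had its highest means in cTAL, mTAL and DCT. In cTAL it ranged from 0.0419 to 118 RPKM with a median of 52.7, and 6 of 7 libraries were above 15. In DCT all 8 libraries lay between 1.39 and 72.2 (median 7.86), and in mTAL 4 of 7 lay between 3.90 and 168 while the other 3 were at or under 0.5. No library of SDL or LDLIM and none of tAL exceeded 0.0129. In all pairwise limma tests cTAL, DCT and mTAL each exceeded every 1 of the other 11 segments (smallest difference 2.37, largest adjusted p = 0.014), so that neighbours in tubule order, DCT and CNT, differed by 3.38 (adjusted p = 8.7e-05). The differences of cTAL from mTAL and DCT did not pass. With its difference of -0.90 from the rest, Cyp2s1 fell short of the size threshold in the proximal comparison.

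Cyp4b1, which hydroxylates short fatty acids and bioactivates some lung toxicants, was present in SDL and near 0 in LDLOM. In the 10 SDL libraries it was at 361, 233, 196, 189 and 44.8 RPKM in 5 and between 0 and 0.688 in the other 5. In the 9 LDLOM libraries its highest value was 0.352. It was the only 1 of 29 P450 genes to pass between SDL and LDLOM, where 0.153% of all genes did (0.144% lower and 0.00903% higher in LDLOM), with a fall of 3.71 on the log2 scale (SE 0.68, adjusted p = 0.0011). With those 2 segments fitted alone, where the SDL spread is not averaged with segments at 0, adjusted p was 0.89. Against the other segments SDL was higher in 12 of 13 pairs and did not pass against OMCD, where 3 of 7 libraries held 51.6, 39.6 and 18.8 RPKM. Endothelial markers (10 genes) summed to a median of 345 RPKM in SDL (7.04 to 1013) and 124 in LDLOM (0.400 to 406), with Pecam1 at 0 in 7 of 10 SDL libraries and 6 of 9 LDLOM libraries. The part of the endothelial signal in the Cyp4b1 difference was not tested.

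Cyp4v3, Cyp20a1 and Cyp27a1 were spread over thin limbs and collecting duct. Cyp4v3 was at 67.7, 60.8, 49.0 and 3.59 RPKM in the 4 LDLIM libraries, and at 223, 182, 77.6 and 34.5 in 4 of 7 tAL libraries with at most 0.335 in the other 3. Aqp1, with a median of 3748 RPKM in LDLIM, had a median of 7.87 in tAL but reached 5273 there. The part of descending limb or endothelial material in the Cyp4v3 values of tAL was not tested. Cyp20a1 was at or above 1 RPKM in 8 of 8 IMCD libraries (3.85 to 67.9) and 9 of 11 CCD libraries. Its highest mean, 50.5 ± 126 RPKM in SDL, came from library SDL 2 at 406. Cyp27a1 had its highest mean in OMCD (24.4 ± 31.2 RPKM, n = 7), where 4 libraries lay between 13.7 and 77.9 and 3 were at or under 0.00345, and it made up 18.8% of the CCD sum (without CCD 9 or CCD 10, Cyp4v3 was ahead of it, and in the second table Cyp20a1). It did not differ among segments by the test across all 14. Cyp17a1, a steroid 17-hydroxylase, held 42.9 and 11.1 RPKM in 2 LDLOM libraries and 27.6 and 7.43 in 2 SDL libraries and at most 0.0331 in any library outside those segments other than 0.0519 in a glomerulus.

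**Figure D4:**
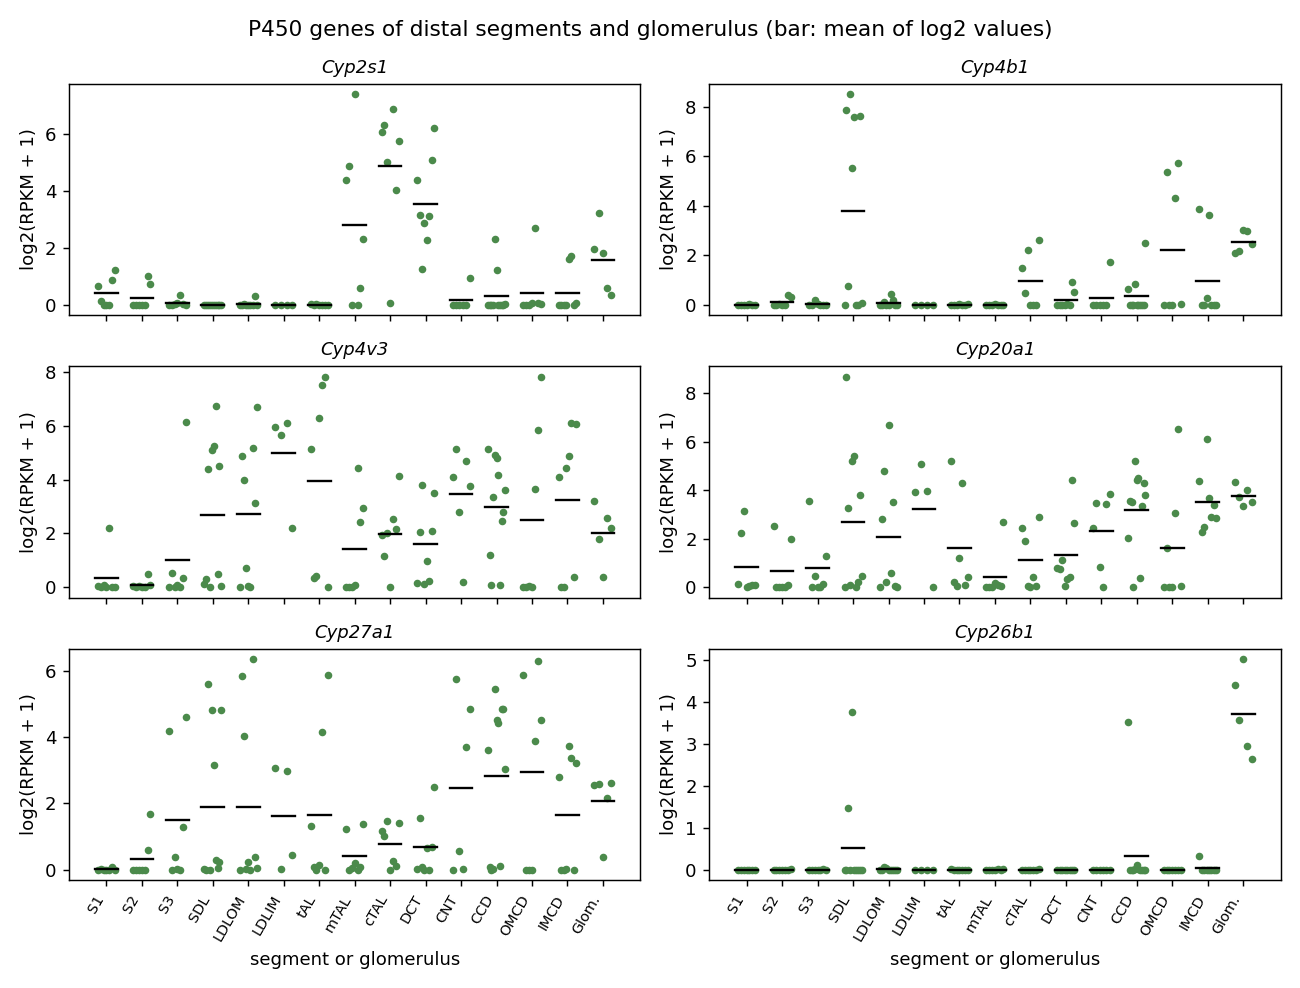
Levels of 6 P450 genes as log2(RPKM + 1) in each library of the 14 segments and of glomerulus; bars are means of the log2 values. Cyp2s1 is high in mTAL, cTAL and DCT, Cyp4b1 in 5 of 10 SDL libraries, and Cyp26b1 in all 5 glomeruli; Cyp4v3, Cyp20a1 and Cyp27a1 vary widely within segments.

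Proximal P450 genes also appeared outside the proximal tubule. Taking the 11 proximal genes with a segment mean of at least 10 RPKM other than Cyp2t1, 16 of the 84 other tubule libraries held at least 1 of them at 10 RPKM or more, among them 5 SDL and 4 LDLOM libraries. In 15 of the 16, 10 proximal tubule markers summed to at least 10 RPKM, which also held for 51 of all 84. Library by library the 2 sums did not always go together. In library LDLOM 1, Cyp4f1 was at 334 RPKM and the markers summed to 3620, within the 1045 to 24951 of proximal libraries. Library mTAL 3 had Cyp4a8 at 92.1 with markers at 402, library tAL 7 had Cyp2c23 at 81.0 with markers at 63.7, and LDLOM 9 had Cyp4a8 at 97.0 with markers at 258. Other libraries had few markers: Cyp4a3 was at 303 RPKM in LDLOM 5 (markers 26.6), at 253 and 138 in SDL 6 and SDL 5 (27.0 and 35.1), and at 49.0 in SDL 9 (0.881). Leaving out the 12 tubule libraries whose markers summed to at least 100 RPKM, a step added after the data were seen, gave the same 15 proximal calls. The Cyp4a8 difference was then 6.94 and that of Cyp4f1 5.01.

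**Figure D5:**
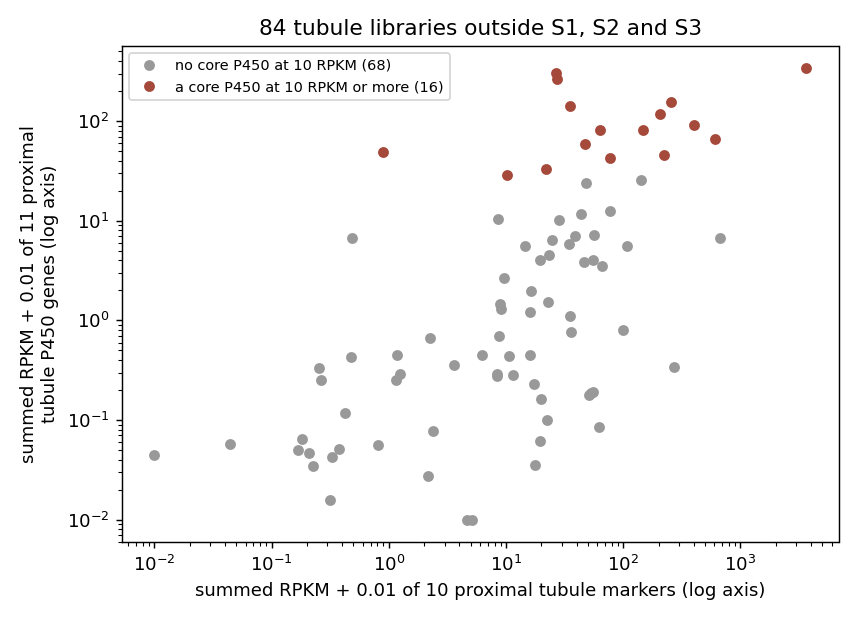
Each of 84 tubule libraries outside S1, S2 and S3, by summed RPKM of 10 proximal tubule markers (horizontal) and of 11 proximal P450 genes (vertical), both with 0.01 added and on log axes. The 16 libraries with a P450 gene at 10 RPKM or more are in red; 15 of them have marker sums of at least 10 RPKM and 1, at 0.881, does not.

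Glomeruli were compared with the 14 segments in a fit of all 110 libraries. Here 31 P450 genes passed the filter, 7 differed, against 38.9% of all 11456 genes: 6 were higher, against 37.7%, and 1 was lower, against 1.19%. The 2 genes added to the 29, Cyp26b1 and Cyp2j3, passed the filter only through their glomerular values and are among the 6, so that count is no support for the set. They are described here without a p. With no filter the split was 5 higher and 2 lower. The median difference over all genes was 1.32, and quantile normalization moved it to -0.18, so each value has to be read against that shift. Cyp26b1, which degrades retinoic acid, had the largest difference: its 5 values were 31.5, 20.1, 11.0, 6.68 and 5.24 RPKM (mean 14.9 ± 10.9 SD), against a highest value of 12.5 in any tubule library and more than 1 RPKM in 3 tubule libraries. The log2 difference was 3.65 ± 0.25 (SE). Cyp2j3, an epoxygenase, did not overlap, at 2.18 to 13.3 RPKM in glomeruli and at most 1.38 elsewhere (difference 2.49). Cyp2d4 (2.70), Cyp4b1 (1.90), Cyp2t1 (1.87) and Cyp2j4 (1.53) were the other higher genes. Cyp4a8 was lower (-1.94, adjusted p = 0.040), at 0 to 1.92 RPKM.

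Of these, Cyp26b1 was the single gene still higher under quantile normalization, where the split was 1 higher and 4 lower, in place of 6 and 1. As Cyp26b1 passed the filter only through its glomerular values, that call is no support either. There Cyp2t1 and Cyp4b1 changed sign (-0.25 and -0.0098), and Cyp2j3 had a difference of 0.57, under the size threshold. With the number of detected genes as a covariate the split was 4 higher and 2 lower. Cyp4a8 missed the threshold without any 1 of glomerulus libraries 1 to 4 (adjusted p = 0.082 to 0.093), and Cyp2t1 without any 1 of libraries 1, 2, 4 and 5 (0.078 to 0.12). Cyp4b1 missed it without library 3 or 4 (0.058 for both). Proximal tubule markers summed to 114 to 232 RPKM in glomeruli and endothelial markers to 1006 to 1737, and their part in these differences was not tested.

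In the CCD of rats given ddAVP, no P450 gene passed the test for extra water. Of 11 that passed the filter, none had an adjusted p under 0.05 in limma, where 0.153% of 8492 genes did (0.0942% higher and 0.0589% lower), and 1 of 11 had an unadjusted p under 0.05, against 7.44% of all genes. The count was 0 as well with a pseudocount of 0.1, no filter, quantile normalization, quality weights or rat number as a block. The 1 gene was Cyp2r1, the vitamin D 25-hydroxylase, at 1.77, 0.0120, 3.46 and 0.664 RPKM in controls and 2.51, 2.56, 5.69 and 5.40 with water load (log2 difference 1.17 ± 0.52 SE, unadjusted p = 0.042, adjusted p = 0.67). Cyp4b1 was at 1.53, 6.77, 3.61 and 15.9 RPKM in controls and 1.04, 0.0248, 5.98 and 2.47 with water load (-1.23, adjusted p = 0.74). The most abundant were Cyp20a1 (37.6 ± 15.6 and 31.6 ± 12.9 RPKM, n = 4 each), Cyp27a1 (31.9 ± 16.4 and 31.4 ± 8.45), Cyp4f6 (21.4 ± 7.22 and 17.6 ± 4.98) and Cyp4v3 (20.5 ± 14.1 and 17.7 ± 4.67), and their adjusted p-values were 0.92 to 1.0. Control library 1 stood apart: it held Cyp2c23 at 72.8, Cyp4a2 at 62.1, Cyp4f1 at 34.0 and Cyp2e1 at 27.4 RPKM, with proximal markers summing to 1339, while the other 7 libraries had marker sums of 37.5 to 126. Those proximal genes did not pass the filter there and were not tested.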

How the data were processed

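The values are RPKM that the authors deposited. Per the submitters' processing notes, reads were trimmed with Trimmomatic 0.32 and aligned with STAR 2.3.0-r192 to rn5, with SAMtools and HOMER also named. The treatment of multi-mapping reads is not stated there. RPKM per gene came from the deposited table made with polyadenylation-site data; a second deposited RPKM table served as an alternative, without its glomerulus columns, whose values correlated with the main table at 0.0093 to 0.016. Tests used limma 3.58.1 (R 4.3.3) with trended empirical Bayes on log2(RPKM + 1), a filter of 1 RPKM or more in 4 or more libraries, and Benjamini-Hochberg adjustment over all genes; the code was tested on simulated data. The fit over all segments assumes a common error for each gene. Python 3.11.15, pandas 2.3.3, Biopython 1.88 and matplotlib 3.10.9 did the rest.

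The P450 set, the partner and marker lists and the motifs were chosen with earlier results of these data known. Genes were named when called in a comparison (up to 10 a direction for the proximal comparison, 8 elsewhere), selective, or at a group mean of 10 RPKM or more; Cyp1a1, Cyp2c24, Cyp2d3, Cyp17a1, Cyp2r1 and the low genes named in counts were singled out after their values were seen. Alternatives were the pseudocount, filter, quantile normalization, replicate block, detected genes as covariate, libraries under 2500 genes, the second table, leaving out each replicate, and groups fitted alone. In the water-load experiment, same-numbered rats deviated together (correlations 0.209 to 0.313 over 4 pairs), and the block changed no call. Some results for an item withheld from this text are not reported here.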

Additional observations from a re-analysis of the deposited data

Results flagged for a closer look

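Within 81 sets of libraries (a P450 gene with a group mean of at least 10 RPKM, in a group of 4 to 10 libraries), 9 had a highest or lowest library far from the rest on the log2(RPKM + 1) scale, by Dixon's 95% criterion. Chance flags about 1 in 20 sets. In 5 of the 9 the odd library was high. Cyp2c23 was at 81.0 RPKM in tAL library 7, where the next tAL library had 0.0474, and at 72.8 in control library 1 of the water-load experiment, next to 0.467. Cyp4a8 was at 92.1 in mTAL library 3 (next 0.558) and at 97.0 in LDLOM library 9 (next 2.36). Cyp4f6 was at 138 RPKM in S3 library 2, next to 6.29. The other 4 were low. Cyp2c23 was at 4.79 RPKM in S1 library 4 (next 159) and at 7.27 in S2 library 4 (next 248). Cyp4v3 was at 3.59 in LDLIM library 4 (next 49.0), and Cyp2s1 at 0.0419 in cTAL library 4 (next 15.5).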

How the results depend on the processing

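With each pair of segments fitted alone, the counts of P450 genes past the threshold fell from 6 to 0 (S1 against S2), from 4 to 0 (S2 against S3), from 5 to 3 (S1 against S3) and from 1 to 0 (SDL against LDLOM). With a pseudocount of 0.1 the counts were 1 (S1 against S2), 1 (selective for 1 segment, in place of 2) and 12 (glomerulus, all higher, in place of 7). Without the 14 libraries of few genes they were 2 (S1 against S2) and 1 (selective). Under quantile normalization, glomerulus differences of Cyp2t1 and Cyp4b1 reversed to -0.25 and -0.0098. Leaving out each library in turn gave 1 to 7 (S1 against S2), 2 to 4 (S2 against S3), 4 to 7 (S1 against S3), 1 to 1 (SDL against LDLOM), 4 to 7 (glomerulus, 4 without library 4) and 0 to 0 (water load). The count for the proximal comparison stayed between 14 and 17 under each alternative run, and that across 14 segments between 18 and 21. The labels give segment libraries with the same number no other link. The correlation of their deviations had a median of 0.0049 for S1 and S2, but ran from -0.123 to 0.724 over 7 pairs. For S1 and S3 the median was -0.063, and no S1 library matched its own number best in S3. The replicate block gave 16 proximal, 8 glomerular and otherwise the main counts (18, 6, 4, 5, 1, 2 and 0). By the second RPKM file, 7 of the 29 genes, Cyp4a1 and Cyp4a2 among them, were more than 1.5-fold higher and none lower. Low values limit the 9 genes that reached 1 RPKM in too few libraries to be tested.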
